A study of Caenorhabditis elegans with 3 samples.

Results

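The genes described here are 48 small RNA pathway and germ granule genes of Caenorhabditis elegans, of 19973 nuclear protein-coding genes in the annotation. They were listed by symbol, and all 48 symbols were found in the WBcel235 assembly, whose sequence is that of the ce11 build. The question asked of each was whether R02D3.7, now named rcat-1 whose product RefSeq names as C2H2-type domain-containing, was found at its promoter by chromatin immunoprecipitation followed by sequencing (ChIP-seq), and how strongly. The worms were L4 larvae of mixed sex, taken whole, of strain OP218, which carries unc-119(ed3) III and the integrated transgene wgIs218. The labels name the tagged protein eGFP-R02D3.7, and a note on replicate 3 places a GFP-FLAG tag at its C-terminal end. All 3 samples were biological replicates of 1 group, with no second genotype, stage or treatment, so nothing was compared between conditions. The transgene stands for the protein through 1 integrated line, and lysates of whole larvae do not show in which tissue a site was occupied. Markers of a tissue cannot be checked in lists of peaks.

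A peak is an interval in which the authors' caller found more fragments than in a control, its summit is the base of highest enrichment, and its signal is the strength the caller gave it. Signals were ranked within a list and were not compared between lists. The authors' thresholded list held 390 peaks, with signals from 35.6 to 901 and a median of 60.9, and these were the 390 strongest of 11533 peaks in the list made from all 3 replicates pooled. The replicate lists held 27624, 28357 and 30000 peaks. By the authors' own description, the pooled list and the replicate lists include background regions. The 1950 strongest of each replicate list (5 times the thresholded number) were therefore used as its strongest peaks. The pooled list was used whole, so a weak pooled peak may be background. A gene was counted as having a promoter peak when a summit fell in its promoter window, which reaches 1000 bp upstream and 200 bp downstream of any of its transcript starts. The lists hold no read counts, so the depth behind a peak is unknown, and the replicate lists share their reads with the pooled and thresholded lists and are no independent check of them.

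Small RNAs guide Argonaute proteins to complementary transcripts. In the nematode, Dicer and its partners make primary small RNAs, RNA-dependent RNA polymerases copy targeted transcripts into secondary ones, and Argonautes carry both kinds into silencing or protection of germline messages. Many of these proteins gather in germ granules, the RNA-rich bodies at the nuclear envelope of germ cells, beside Nanos, PUF and GLD proteins, which control translation and stability of germline messenger RNAs.

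Of the 48 genes, 5 had a promoter summit in the thresholded list (10.4%), against 2.00% of all nuclear protein-coding genes. They were gtsf-1, nos-3, wago-4, him-19 and puf-9. The list was drawn up with these peaks already known, so its share is a description and no independent support for a preference. The sequences that follow are the 101 bp centred on the summit of the thresholded peak, read from the RefSeq sequence of WBcel235 and written 5′ to 3′ on the strand of the named gene. They are shown because an 8-base word lies near the summit in most of them and is absent from the last. Capitals mark CGTAAATC or, on the other strand, GATTTACG. The gtsf-1 window is chrIV:16865669-16865769, the nos-3 window chrII:9746209-9746309, the wago-4 window chrII:12919229-12919329 and the puf-9 window chrX:5841247-5841347, all on the plus strand.
gtsf-1: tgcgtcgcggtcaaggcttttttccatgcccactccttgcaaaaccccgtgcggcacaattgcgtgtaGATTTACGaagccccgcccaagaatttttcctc
nos-3: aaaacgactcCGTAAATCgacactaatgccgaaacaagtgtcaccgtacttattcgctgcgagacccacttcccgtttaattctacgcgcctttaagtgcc
wago-4: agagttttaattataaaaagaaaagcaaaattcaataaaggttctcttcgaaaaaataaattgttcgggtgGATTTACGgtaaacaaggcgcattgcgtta
puf-9: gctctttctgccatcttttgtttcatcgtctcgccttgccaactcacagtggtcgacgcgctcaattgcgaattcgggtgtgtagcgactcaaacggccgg

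The strongest promoter peak was that of gtsf-1 (WBGene00020286), which encodes a small zinc finger protein that in C. elegans binds the RNA-dependent RNA polymerase RRF-3. The gene lies on chromosome IV from 16865840 to 16866504 on the plus strand. Its thresholded peak ran from 16865443 to 16865940 and had a signal of 457, rank 8 of 390. The summit, at 16865719, lay 121 bp before the start. The peak inside this interval had a signal of 214 in replicate 1, 103 in replicate 2 and 143 in replicate 3, which were ranks 5, 9 and 9 of their lists. All 3 replicates thus placed it among their 10 strongest peaks, and their summits lay within 9 bp of each other. No other start had this summit in its window among the genes used, which leave out piRNA genes. The nearest protein-coding gene upstream, lsy-13, lies on the same strand and ends 353 bp before gtsf-1 begins.

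The peak of nos-3 (WBGene00003785), a Nanos protein that works with the PUF protein FBF in the switch from sperm to oocytes, came next. The gene lies on chromosome II from 9746316 to 9750462 on the plus strand. The peak ran from 9746105 to 9746420, had a signal of 202 at rank 45, and reached its summit 57 bp before the start. Its replicate signals were 83.5, 74.1 and 38.5 in replicates 1, 2 and 3, and its ranks 51, 22 and 103. The peak was high in every replicate, and lower in the order of replicate 3 than in that of the other replicates. The space of 237 bp upstream of nos-3 is shared with Y53C12B.1, on the opposite strand, whose start lies 181 bp from the same summit. A peak between divergent starts cannot be assigned to either gene from these lists. A weaker pooled peak, with a signal of 20.2 at rank 1475 and below the threshold, lay 9 bp upstream of a downstream start of nos-3.

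The peak of wago-4 (WBGene00010263), an Argonaute that binds secondary small RNAs and acts in their inheritance, was the strongest among the 9 Argonaute genes. The gene lies on chromosome II from 12919551 to 12923377 on the plus strand, and its peak ran from 12919187 to 12919395, with a signal of 85.8 and rank 150. The replicate signals were 47.4, 21.3 and 21.3, at ranks 119, 161 and 193. The replicates were close in rank, and their summits lay within 23 bp. The summit lay 272 bp upstream of wago-4 and 269 bp upstream of F58G1.2, a gene with a C2H2-type domain on the opposite strand, so F58G1.2 was nearer by a few bases. Another pooled peak, with a signal of 23.1 at rank 1021, lay 72 bp upstream of wago-4, below the threshold.

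The peak of him-19 (WBGene00022390), which acts in chromosome pairing and recombination in meiosis, had no competing start among the genes used, piRNA genes being left out. The gene lies on chromosome I from 889767 to 895099 on the minus strand, and its peak from 894969 to 895398 had its summit 85 bp upstream of the start, a signal of 66.6 and rank 185. Replicate signals were 30.6, 22.4 and 15.5, at ranks 183, 146 and 293. The nearest protein-coding gene upstream, gpa-16, is on the opposite strand and 2186 bp away.

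The peak of puf-9 (WBGene00004245), a PUF protein known for roles in larval development, was the only one of the 5 that 1 replicate did not place among its strongest. The gene lies on chromosome X from 5841592 to 5845987 on the plus strand, and the peak from 5841082 to 5841511 had its summit 295 bp upstream of the start, a signal of 63.5 and rank 188. Inside that interval the replicate signals were 28.2, 22.7 and 7.17, at ranks 205, 141 and 2261. Replicate 3 instead had its strongest peak of the promoter 518 bp upstream of the start, with a signal of 11.3 at rank 539. The summit lies within exons of a pair of non-coding RNA genes, W06B11.7 on the minus strand and W06B11.9 on the plus strand, whose starts are 53 and 112 bp from it and so nearer than that of puf-9. The summits of the other 4 peaks are in sequence annotated as intergenic.

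**Figure D1:**
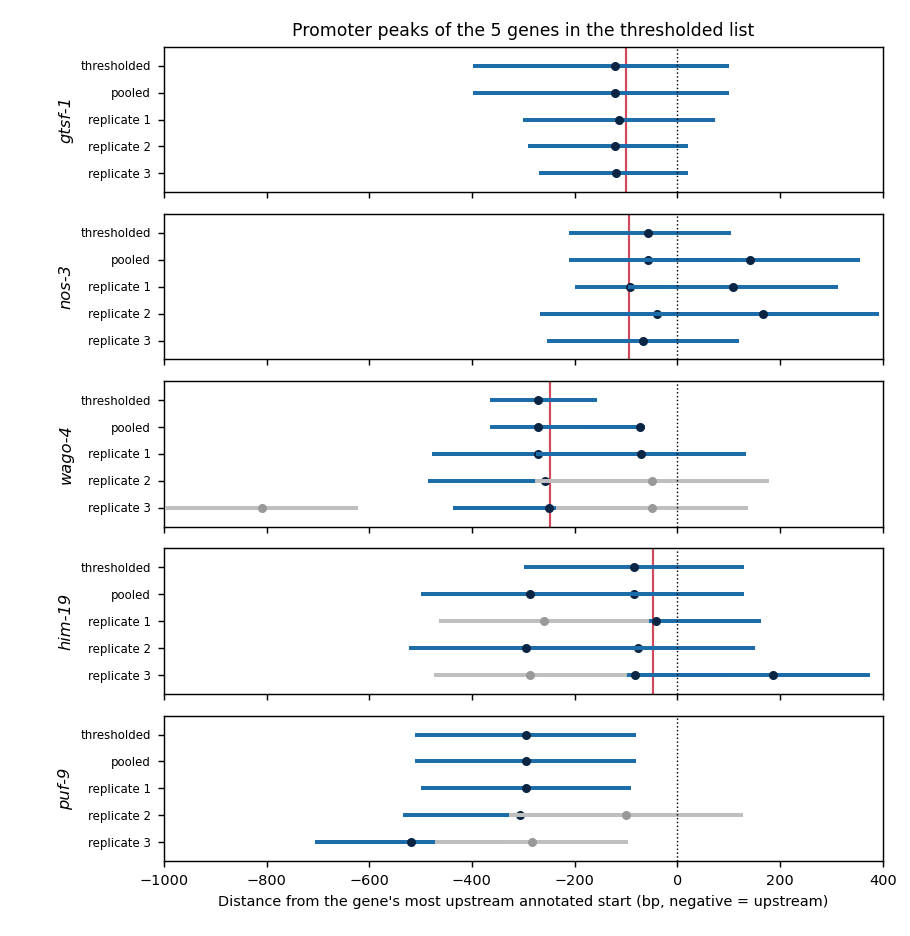
Each panel shows the promoter of 1 of the 5 genes, with distance from the most upstream annotated start in bp on the horizontal axis and 1 row for each list. Bars are peaks and dots their summits, grey marks replicate peaks outside the 1950 strongest of a replicate, and the red line is the centre of CGTAAATC. The dots of gtsf-1 line up within 9 bp in the 3 replicates, whereas replicate 3 has its strong puf-9 peak 518 bp upstream and only a grey one under the thresholded peak.

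By rank within its own list, replicate 3 placed 4 of these 5 promoter peaks lowest of the replicates, and gtsf-1 at the same rank as replicate 2. The labels give replicate 3 sonication with a microtip and a laboratory source, while those of replicates 1 and 2 name the CGC, a stock centre, and a range of fragment sizes. Preparation and replicate cannot be told apart with 1 sample prepared in that way. Of the 5 thresholded peaks, 4 had a summit of the strongest peaks of all 3 replicates inside them, and puf-9 had those of 2. The share of all thresholded peaks with such support is not given here, so this count is not particular to these genes. Counted over the promoter window instead, all 5 genes had a summit among the strongest peaks of every replicate, 10.4% of the 48 against 2.05% of all nuclear protein-coding genes. No other member did so.

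**Figure D2:**
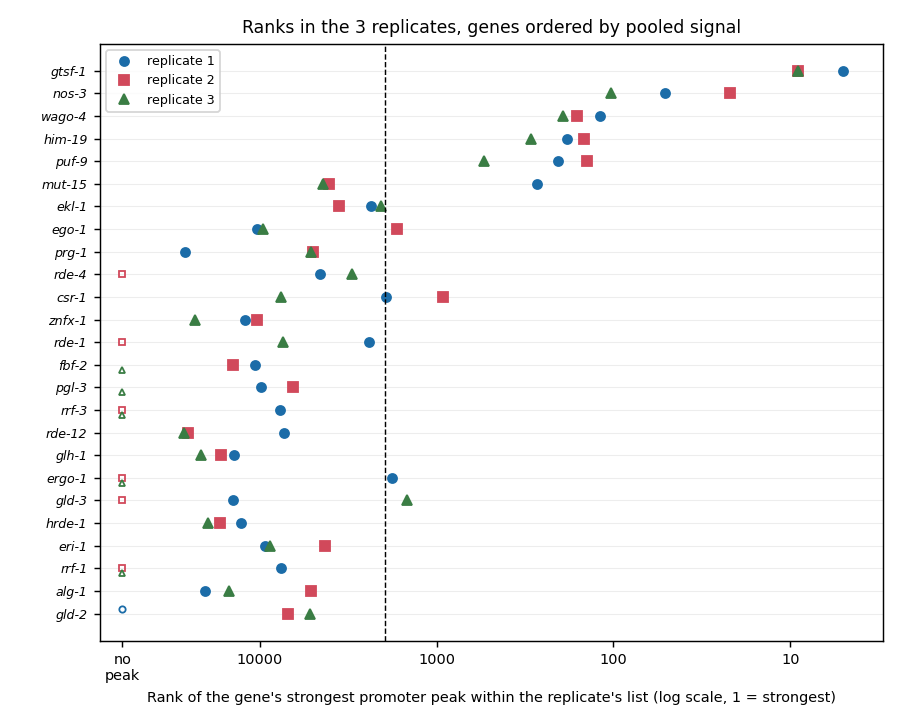
The 25 genes with a pooled promoter peak are ordered by pooled signal from top to bottom, and the horizontal axis gives the rank of the strongest promoter peak in each replicate, which need not overlap the pooled peak, on a log scale with the strongest to the right. Open symbols mean no peak in that replicate, and the dashed line is rank 1950. The top 5 genes lie right of the line in all 3 replicates, and from mut-15 down the replicates spread and often lack a peak.

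In the pooled list, 25 of the 48 genes (52.1%) had a promoter summit, against 21.6% of all nuclear protein-coding genes. This list includes background regions and has a lowest signal of 10.3, so its weaker peaks may be background. Genes with a 3 or 4 letter name, as all members have, stood at 25.9% in the pooled list and 2.59% in the thresholded list. Apart from the 5 described, pooled signals ran from 10.4 to 34.2. The strongest promoter peaks of the 25 genes had a median signal of 13.3, against 14.4 for the 4306 nuclear protein-coding genes with a pooled promoter peak and 13.1 for all pooled peaks. Of the 25, 7 were within the 1000 strongest pooled peaks (28.0%, against 17.9% of the 4306) and 12 within the 5000 strongest (48.0%, against 56.5%). Several of the summits below the threshold lie in exons of neighbouring genes, among them that of rde-1 in trpp-6, pgl-3 in hil-4, glh-1 in sacy-1 and gld-2 in ZC308.4.

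**Figure D3:**
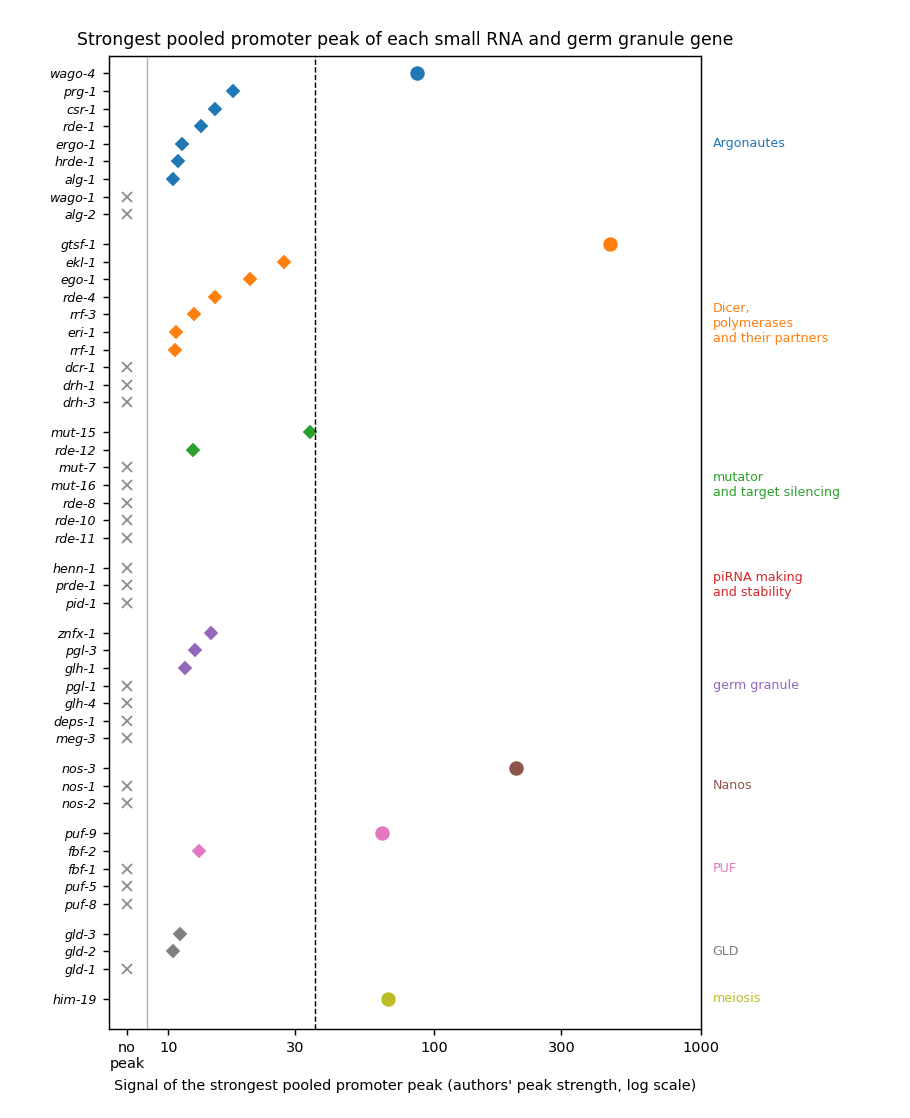
The signal of the strongest pooled promoter peak of each of the 48 genes is plotted on a log scale, grouped by role. Circles are genes in the thresholded list, diamonds genes in the pooled list only and crosses genes with no pooled promoter peak, and the dashed line is the lowest thresholded signal, 35.6. The 5 circles belong to 5 different role groups, of which meiosis holds him-19 alone and germ granule holds no circle. The gene mut-15, at 34.2, lies just left of the line.

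Counts by role group rest on few genes each, were not tested and are not read as differences between groups. Beside them stand the shares of all nuclear protein-coding genes, 21.6% in the pooled list and 2.00% in the thresholded list. Among the 9 Argonaute genes, 7 had a pooled promoter peak and wago-4 alone a thresholded one. The next was prg-1, the Piwi protein that binds piRNAs, with a pooled signal of 17.5 at rank 2259 and its summit 166 bp downstream of the start, in its own coding sequence. For csr-1, the Argonaute of germline-expressed transcripts, the pooled signal was 14.9 at rank 3715. Replicates 1 and 2 each had a summit inside this pooled peak, at ranks 1936 and 921 and so among their strongest. Replicate 3 had none inside it, and its strongest csr-1 promoter peak, at rank 7610, lay elsewhere, 369 bp upstream of another start. The pooled summit was 30 bp upstream of a downstream start of csr-1 and inside the gene, and with the most upstream start alone csr-1 had no pooled promoter peak. The signals of rde-1, the Argonaute of RNA interference by exogenous double-stranded RNA, ergo-1, which binds primary small RNAs, hrde-1, the nuclear Argonaute of inherited silencing, and alg-1, which binds microRNAs, lay between 10.4 and 13.3. The pooled summits of ergo-1 and alg-1 also lay inside their own genes, and neither gene had a pooled promoter peak with the most upstream start alone. The remaining Argonaute genes, wago-1 and alg-2, had no pooled promoter peak.

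Among the 10 genes of Dicer, the polymerases and their partners, 7 had a pooled promoter peak, and gtsf-1 alone passed the threshold. The polymerase partner ekl-1 followed with a pooled signal of 27.2 at rank 664 and replicate ranks of 2358, 3555 and 2059, none of them among the strongest 1950. The RNA-dependent RNA polymerase ego-1 had 20.2 at rank 1467, with a summit 810 bp upstream in the annotated 3′ UTR of F26A3.4. The Dicer partner rde-4 had 14.9 at rank 3702, and it had no promoter peak in replicate 2. The polymerases rrf-3 and rrf-1 and the exonuclease eri-1 had between 10.6 and 12.5. The rrf-1 summit lay in its own coding sequence, and with the most upstream start alone rrf-1 had no pooled promoter peak. Dicer itself, dcr-1, and the helicases drh-1 and drh-3 had no pooled promoter peak. The binding partner gtsf-1 thus had a signal of 457 where the polymerase rrf-3 had 12.5, on the scale of the same list.

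The 7 mutator and target silencing genes had no thresholded peak and 2 pooled ones, where 2.00% and 21.6% of all nuclear protein-coding genes had one. The nearest to the threshold from below among all 48 genes was mut-15, a component of the mutator complex that amplifies secondary small RNAs. Its pooled signal was 34.2 at rank 422, against 35.6 for the weakest thresholded peak and 63.5 for puf-9, the weakest member inside. In the replicates mut-15 had signals of 21.9, 6.38 and 5.83, at ranks 269, 4077 and 4407. Replicate 1 alone held it among its strongest peaks. The summit lies 100 bp upstream of mut-15, in the 319 bp shared with fib-1 on the opposite strand. The helicase gene rde-12 had a pooled signal of 12.4 and its summit 876 bp upstream. No pooled promoter peak was found for mut-7, mut-16, rde-8, rde-10 or rde-11. For rde-11, which also had no promoter summit in any replicate list, the nearest thresholded summit lay 1725 bp downstream of its start, outside the window, with a signal of 36.9.

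None of the 3 genes for the making and stability of piRNAs, henn-1, prde-1 and pid-1, had a pooled promoter peak. Among the 7 germ granule genes, 3 had one and none was thresholded. The helicase znfx-1 had a signal of 14.5, the scaffold gene pgl-3 12.6 and the Vasa-type helicase glh-1 11.5, all with summits over 500 bp upstream of the start they were assigned to. For znfx-1 that was a downstream start, and the summit lay in the coding sequence of znfx-1 itself. With the most upstream start alone znfx-1 had no pooled promoter peak. No promoter peak appeared for pgl-1, glh-4, deps-1 or meg-3 in the pooled list or in any replicate.

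The Nanos genes differed within the family. The signal of nos-3 was 202, while nos-1 and nos-2 had no promoter peak in the pooled list or in any replicate list. Among the 5 PUF genes, puf-9 had 63.5 and fbf-2, a repressor of translation in germline stem cells, had 13.1 at rank 5719, with no peak in replicate 3. No pooled promoter peak was found for fbf-1, puf-5 or puf-8. Among the GLD genes, gld-3 and the poly(A) polymerase gld-2 had 11.1 and 10.4, and gld-1, a translational repressor, had none. The promoter peak of gld-3 ranked 14089 in replicate 1 and 1470 in replicate 3 and was missing in replicate 2.

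Of the 23 members with no pooled promoter peak, 10 had none in any replicate list, 4 had one in 1 list, 9 in 2 lists and none in all 3. The same tally over all genes with no pooled promoter peak is not given here, so these counts have no background beside them. Over all 48 genes, 33, 26 and 26 had any promoter peak in replicates 1, 2 and 3 (68.8%, 54.2% and 54.2%), where the shares of all nuclear protein-coding genes were 39.2%, 37.3% and 40.8%. Among the strongest peaks the counts were 8, 7 and 6 (16.7%, 14.6% and 12.5%), against 6.22%, 5.26% and 5.49%. Any promoter peak in all 3 replicates was found for 16 genes (33.3%), against 14.8%. A member with no promoter peak was not shown to be free of the protein, since the depth is unknown.

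By chromosome, the thresholded members were 1 of 14 on chromosome I, 2 of 13 on II, none of 5 on III, 1 of 7 on IV, none of 6 on V and 1 of 3 on X. On the X chromosome 0.659% of protein-coding genes had a thresholded promoter peak, against 2.21% on the autosomes, and puf-9 was the member among them. In the pooled list the shares were 17.1% on X, where 2 of the 3 members had a promoter peak, and 22.3% on the autosomes.

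The word CGTAAA, and the longer CGTAAATC that contains it, were seen in earlier results of these data and were searched on both strands. Within 50 bp of the summit, CGTAAATC was found at gtsf-1, nos-3, wago-4 and him-19, so at 4 of 5 thresholded member peaks, and at 149 of 364 nuclear thresholded peaks (40.9%). It was found at 0 of the 20 members' strongest pooled summits below the threshold and at 2.23% of all nuclear pooled summits below it. Windows of 101 bp centred 100 bp upstream of the starts of all nuclear protein-coding genes held it in 0.701%. The centre of the word lay 21.5 bp from the summit at gtsf-1, 24.5 bp at wago-4, 36.5 bp at nos-3 and 37.5 bp at him-19. The shorter CGTAAA was at the same 4 of 5 peaks, at 48.1% of nuclear thresholded peaks, at 1 of the 20 weaker member summits and at 5.24% of the upstream windows. A match is a run of letters and not a measured site, and the window of puf-9, like that of mut-15, holds neither word.

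Over the whole window of 1201 bp round the most upstream start, CGTAAATC was present in 5 of the 48 genes (10.4%) and in 5.59% of all nuclear protein-coding genes. Of these 5, the member with no thresholded peak was prde-1, which works in the transcription of piRNA precursors. There the word lies 971.5 bp upstream of the start, and no list had a promoter peak. Among all nuclear protein-coding genes, 20.9% of those with the word in the window and 0.875% of those without it had a thresholded promoter peak. The 6-base word is common, in the windows of 18 of the 48 genes (37.5%) and of 39.5% of all. A different word, CGACAC, lay within 50 bp of the nos-3 summit alone among the 5, where it shares its first base with the end of CGTAAATC, and at 26.4% of nuclear thresholded peaks. Within 100 bp it lay at 2 of the 5 summits and at 33.5% of nuclear thresholded peaks. The whole window held it in 11 of the 48 genes (22.9%), 4 of the 5 with a thresholded peak, and 25.3% of all.

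Beyond the 48, a further list of 108 small RNA, germ granule and germline RNA regulation genes was counted by the same rules. Of these, 7 had a thresholded promoter peak (6.48%) and 38 a pooled one (35.2%), against 2.00% and 21.6% of all. They were nyn-2, tofu-5, panl-2, car-1, puf-12, nyn-1 and ifet-1. Here too the symbols were chosen with earlier results known.

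**Figure D4:**
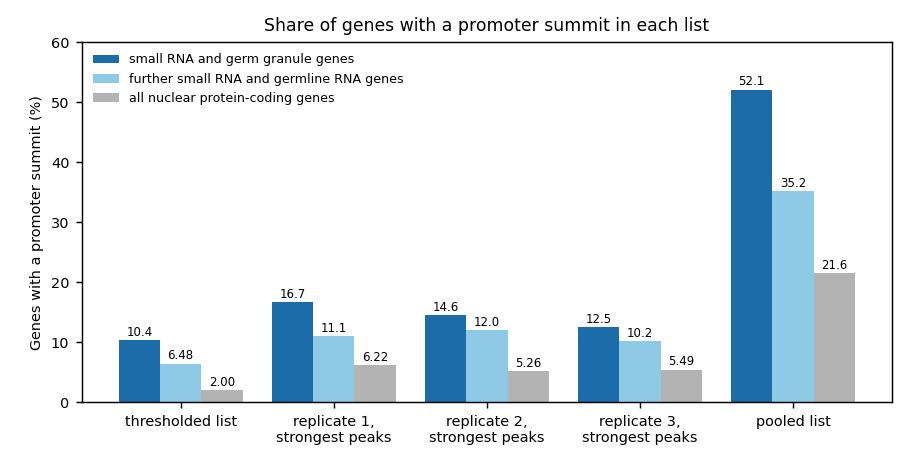
Bars give the percent of genes with a promoter summit in the thresholded list, in the 1950 strongest peaks of each replicate and in the pooled list. Dark bars are the 48 genes, light bars the further 108 and grey bars all 19973 nuclear protein-coding genes. The dark bar is the tallest in each of the 5 sets, from 10.4% in the thresholded list to 52.1% in the pooled list, over lists drawn up with earlier results known.

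The strongest of these was nyn-2, with a signal of 145 at rank 73, and its relative nyn-1 had 52.3 at rank 239. Both encode ribonucleases with a NYN domain, like rde-8 among the 48, which had no pooled promoter peak. The nyn-1 peak lay 191 bp upstream of its start with no other gene in reach among those used, piRNA genes being left out. The nyn-2 summit, 240 bp upstream, was nearer to cyn-15 on the opposite strand, at 92 bp. The signal of tofu-5, which works with prde-1 at piRNA genes, was 109 at rank 113. Its summit was 149 bp upstream and 105 bp from the start of nuo-6.

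The remaining 4 further genes share their summits with other starts. The deadenylase gene panl-2 had a signal of 79.2 at rank 161, 317 bp upstream. A pair of non-coding RNA genes both named F31E3.9, at 121 and 174 bp, were nearer, and the microRNA gene cel-mir-2213, at 423 bp, was also in reach. For car-1, whose protein sits in germline RNA granules, the signal was 60.7 at rank 196, and its start was 823 bp away while that of coa-5 was 198 bp away. The PUF gene puf-12 had 53.2 at rank 236, 254 bp upstream. Nearer to that summit were pas-7, at 202 bp, and the non-coding RNA genes ZK945.12 and ZK945.13, at 4 and 42 bp. For ifet-1, a repressor of translation in oocytes, the signal was 40.7 at rank 324 and the start of rps-1, a ribosomal protein gene, was nearer, at 258 bp against 510 bp. Nearer still were the non-coding RNA genes F56F3.11, at 3 bp, and F56F3.10, at 84 bp, and replicate 2 had no summit inside the ifet-1 peak.

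Within 50 bp of the summit, 6 of these 7 peaks held CGTAAA and 5 held CGTAAATC, while CGACAC was also found in 5. Windows of nyn-1 (chrIV:13687156-13687256, minus strand), puf-12 (chrII:10100006-10100106, plus strand) and ifet-1 (chrIII:4475610-4475710, minus strand) are given on the strand of the gene, with CGTAAATC or its reverse complement in capitals, to set a pair that holds the word beside one that does not.
nyn-1: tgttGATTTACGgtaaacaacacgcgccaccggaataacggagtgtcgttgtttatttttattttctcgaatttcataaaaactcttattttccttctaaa
puf-12: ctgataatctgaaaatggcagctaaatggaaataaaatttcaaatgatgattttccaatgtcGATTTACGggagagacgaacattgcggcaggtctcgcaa
ifet-1: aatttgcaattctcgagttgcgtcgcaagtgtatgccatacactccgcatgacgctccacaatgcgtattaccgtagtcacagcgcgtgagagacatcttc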

How the data were processed

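ChIP-seq of the tagged R02D3.7 protein in 3 replicates of L4 larvae was read as lists of peaks. Per the deposited description files, the authors called peaks on each replicate's alignment and on the 3 alignments pooled, against a control. They filtered these by irreproducible discovery rate into the thresholded list. Which aligner, caller and cutoff they used is not given in the sources used here. Signal, as deposited by the authors, measures how strong their caller found a peak, and the deposited summit is an offset from the peak's start. The ce10 versions of the lists were not used.

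Gene models were those of Ensembl release 115 for WBcel235 without the 15363 piRNA genes, which left 31563 genes, and coordinates are 1-based. Sequences came from RefSeq for the same assembly. A replicate supported a thresholded peak when the summit of one of its 1950 strongest peaks lay inside it. Counts are set beside the same count over 19973 nuclear protein-coding genes, with no test, since there is 1 group. Gene assignment was tested on simulated data. Scripts ran in Python 3.11.15 with NumPy 2.4.6 and Matplotlib 3.10.9.

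The members, the further list (108 of 114 symbols matched), the words searched and the alternatives were chosen with earlier results of these data known. Named are members with a thresholded peak, members with a pooled peak, members without one in their role group, genes sharing a summit with a thresholded member, and genes of the further list with a thresholded peak, which include its 5 strongest pooled peaks. Positions, signals and ranks are given without an estimate of error, and they differ between replicates. The alternatives were other promoter windows, starts, list lengths, word distances and each replicate left out.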

Additional observations from a re-analysis of the deposited data

How the results depend on the processing

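The count of 5 members in the thresholded list was the same with a window of 500 bp upstream to 100 bp downstream, with 1500 bp to 500 bp, with only the most upstream start, with peak overlap in place of the summit and in the stronger 50% of the list. With only the gene nearest to each summit it was 3, since puf-9 and wago-4 lost theirs, and the strongest pooled peak of wago-4 then moved from 85.8 to 23.1. The pooled count of 25 was 15 in the narrower window, 7 in the 1000 strongest and 12 in the 5000 strongest pooled peaks. It was 20 with only the nearest start. With only the most upstream start it was also 20, since alg-1, csr-1, ergo-1, rrf-1 and znfx-1, whose summits lie inside their own genes, lost theirs. Shares of all nuclear protein-coding genes under these other windows and starts are not given here, so those counts have no background beside them. The count with a summit in the strongest peaks of every replicate rose from 5 to 16 when every replicate peak was used (33.3%, against 14.8% of all nuclear protein-coding genes). With 1 replicate left out, thresholded peaks supported by both others numbered 4 to 5, against 4 by all 3, the 5 being reached without replicate 3, which adds puf-9. Members in the strongest peaks of both others numbered 5 to 6, the 6 also without replicate 3. CGTAAA lay within 25 bp of 1 of the 5 summits (20.0%, against 27.2% of nuclear thresholded summits), and within 50 bp of 4 (80.0%, against 48.1%). Of 105 alternative values for the peaks of 25 single genes, 104 were within 1.5 times the reported value, and 20 further alternatives left the gene with no peak. A peak keeps its deposited signal under every setting, so a value could change only where another peak became the strongest. These values therefore do not measure how stable a signal is. No paired analysis was possible because there is 1 group. Depth is unknown, so no interval or limit of detection can be given, and whole larvae leave the tissue of a site untold.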

Other observations

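The windows printed for wago-4 and nyn-1 share a run of 16 bases, which contains GATTTACG and was picked after the values were seen: gatttacggtaaacaa. It occurs 13 times in the genome of WBcel235 on either strand, 12 of these inside thresholded peaks and all 13 inside pooled peaks, and a run chosen from peaks is no independent evidence of binding. The 12 thresholded peaks have signals from 52.3 to 304, and the run's centre lies 0.5 to 55.5 bp from their summits. The strongest is in reach of both pph-5 and Y39B6A.3, with a signal of 304 at rank 19. Others are at gfl-1 and M04B2.4, with 117, and at pelo-1, a factor in the rescue of stalled ribosomes, and R74.7, with 106. These lists do not tell to which gene of such a pair a peak belongs. The match outside the thresholded list lies at thoc-1 and T02H6.11, under a pooled peak with a signal of 24.4 at rank 875. The 8-base word alone occurs 6292 times in the nuclear genome, and 226 of these matches (3.59%) lie inside thresholded peaks.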
